A study of Mus musculus with 59 samples.

Results

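The 10 genes described here mark the onset of the primitive streak and its Wnt signal in the mouse embryo: T, Eomes, Mixl1, Mesp1, Gsc, Evx1, Fgf8, Wnt3, Wnt3a and Axin2. They were picked by gene symbol from the 22119 genes with a listed transcript in the RNA-seq of 14 single epiblasts, and each gene is represented by its transcript with the highest mean read count. The study asked what the histone methyltransferases G9a and EZH2 repress in the epiblast, the pluripotent tissue of the implanting embryo that gives rise to the body. Single epiblasts were dissected at E6.25 (6.25 days after conception) from embryos of mixed background, 750 pg of RNA per epiblast was amplified, and reads were counted per transcript. In the first cross, Ehmt2, the gene of G9a, was deleted: 4 epiblasts were labelled G9a-/- (Ehmt2 knockout) and 4 were labelled G9a+/+ (Ehmt2 control). In the second cross, 3 epiblasts were labelled Ezh-/- (Ezh2 knockout) and 3 were labelled Ezh+/+ (Ezh2 control). The methods name a conditional allele of Ehmt2, mate heterozygous parents, draw the epiblasts from 4 and 3 litters, and name heterozygous as well as wild-type embryos as controls, so a control may carry 1 mutant allele. The Ehmt2 line was also crossed to a deltaPE-Pou5f1-EGFP reporter. The labels give the same age for every epiblast and no morphological stage.

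The primitive streak forms at the posterior edge of the epiblast, where cells leave the epithelium and become mesoderm and endoderm. Its induction rests on a loop between Nodal, BMP4 from the adjoining extraembryonic ectoderm and WNT3 in the posterior epiblast and visceral endoderm. Canonical Wnt ligands stabilise beta-catenin, which joins TCF/LEF factors at target genes such as T and Axin2. T, Mixl1 and Evx1 come on as the streak starts, Gsc marks its anterior end and the anterior visceral endoderm, and Mesp1 marks the first mesoderm that moves away from it. Genes of this kind are commonly read as signs of an embryo's stage, which was not recorded for these epiblasts.

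Summed counts over all transcripts ran from 30161171 to 68464895 per epiblast, and transcripts of 1 gene share reads in these sums. Levels are given as CPM, read counts per 1000000 counts scaled by TMM over the 14 epiblasts, so that 1 count equals 0.0167 to 0.0310 CPM and a count of 0 allows up to 0.0501 to 0.0931 CPM (3 counts, counting error only). The targeted genes were lower in their own knockouts, Ehmt2 with an estimated log2 change of -1.63 (SE, the standard error, 0.21, adjusted p = 0.00454) and Ezh2 with -2.52 (standard error 0.27, adjusted p = 0.0160; both edgeR). Replicate 4 of both Ehmt2 groups stood apart, since its chi-square against the other replicates of its group, divided by the degrees of freedom, was 120 to 158 and that among replicates 1 to 3 was 13.8 to 25.5. The Ehmt2 fit therefore has a term for the comparison set, replicates 1 to 3 or replicate 4. The summed level of 8 epiblast markers was lower in Ehmt2 knockouts (1449 to 2200 CPM) than in Ehmt2 controls (2418 to 2782 CPM). The 2 groups did not overlap, and 2.54% of all tested transcripts also had each knockout below each control. The same sum was 1856 to 2444 CPM in Ezh2 knockouts against 2301 to 2530 CPM in Ezh2 controls.

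The clearest pattern lay within the control group of the first cross. Ehmt2 control 2 held the highest level among the 8 Ehmt2 epiblasts of 8 of the 10 genes, the exceptions being Fgf8 and Wnt3, while 6.89% of all tested transcripts were highest in this epiblast. The 8 genes include Mesp1 and Wnt3a, which were too low to be tested. They also include Eomes, at 121 CPM against 119 CPM in Ehmt2 knockout 1. The mean log2(CPM + 0.5) of the 10 genes was 3.02 in Ehmt2 control 2, the highest of the 14 epiblasts, and between 0.60 and 1.37 in the other 3 Ehmt2 controls. The 4 Ehmt2 knockouts lay between 1.00 and 1.19, inside the range of those 3 controls. Ehmt2 control 2 was also the only epiblast in which each of the 10 genes had more than 3 counts.

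**Figure D1:**
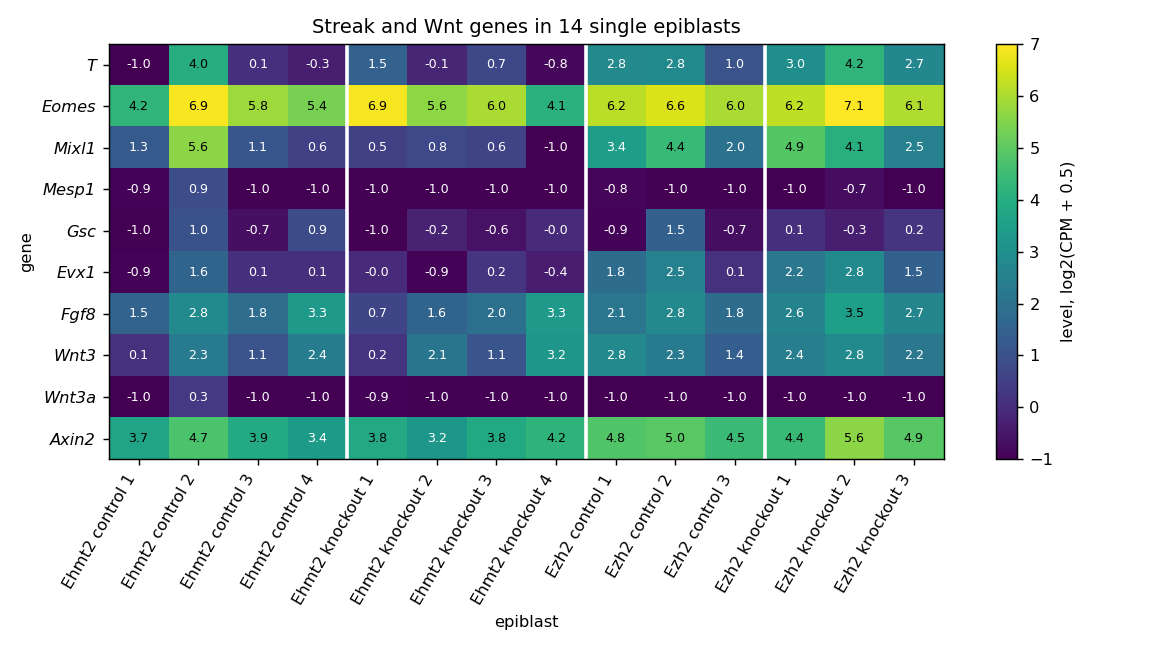
Level of each of the 10 genes (rows) in each of the 14 epiblasts (columns, grouped as Ehmt2 control, Ehmt2 knockout, Ezh2 control and Ezh2 knockout), as log2(CPM + 0.5), where -1 is 0 counts. The column of Ehmt2 control 2 stands out from its 3 neighbours in T, Mixl1, Mesp1, Evx1 and Wnt3a, and Ezh2 knockout 2 is the brightest column of the second cross.

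T encodes Brachyury, a T-box factor of nascent mesoderm (ENSMUSG00000062327, chromosome 17 from 8434423 to 8442496, plus strand, GRCm38). T had 0, 15.4, 0.561 and 0.300 CPM in Ehmt2 controls 1 to 4, so control 2 was 27.4-fold above the next control. Mixl1, a homeobox gene of the early streak (ENSMUSG00000026497, chromosome 1 from 180693043 to 180697034, minus strand), had 1.90, 48.4, 1.71 and 0.994 CPM, with control 2 at 25.4-fold the next. Both genes thus separated 1 control from 3 that lay close together.

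Mesp1 and Wnt3a were counted almost only in this epiblast. Mesp1, a basic helix-loop-helix factor of the first mesoderm (ENSMUSG00000030544, chromosome 7 from 79792241 to 79793788, minus strand), had 64 counts in Ehmt2 control 2 and a total of 71 counts in the 14 epiblasts. The other counts were 1 in Ehmt2 control 1, 2 in Ezh2 control 1 and 4 in Ezh2 knockout 2. Wnt3a, a canonical Wnt ligand of the streak (ENSMUSG00000009900, chromosome 11 from 59248033 to 59290752, minus strand), had 35 counts in Ehmt2 control 2, 1 count in Ehmt2 knockout 1 and 0 counts in the other 12 epiblasts. Neither gene passed the filter on low counts in either cross, so neither entered the tests below.

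Of the genes compared with T below, Evx1 had the highest correlation of log2 levels with it. The promoters of T, Evx1 and Wnt3a are shown as examples from the 8 genes that were highest, among the Ehmt2 epiblasts, in control 2. Each is the RefSeq window (GRCm38.p6) from 250 bases before to 50 bases after the gene's start, read along the gene's strand: chr17:8434173-8434472 for T and chr6:52313248-52313547 for Evx1, both plus strand, and chr11:59290702-59291001 for Wnt3a, minus strand. Exact matches, on either strand, to the TCF/LEF core CTTTGAT, the T-box element TCACACC or the FOXH1 site AATCCAC would be in capitals, and these 3 windows held none. Other spellings of these sites were not searched, so the lack of an exact match does not show that a window has no such site.
T: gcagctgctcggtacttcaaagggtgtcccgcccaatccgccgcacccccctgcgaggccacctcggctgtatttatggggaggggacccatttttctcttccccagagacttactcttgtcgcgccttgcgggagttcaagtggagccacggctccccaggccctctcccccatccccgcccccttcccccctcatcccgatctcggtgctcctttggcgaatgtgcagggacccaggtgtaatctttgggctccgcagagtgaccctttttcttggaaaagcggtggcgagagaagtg
Evx1: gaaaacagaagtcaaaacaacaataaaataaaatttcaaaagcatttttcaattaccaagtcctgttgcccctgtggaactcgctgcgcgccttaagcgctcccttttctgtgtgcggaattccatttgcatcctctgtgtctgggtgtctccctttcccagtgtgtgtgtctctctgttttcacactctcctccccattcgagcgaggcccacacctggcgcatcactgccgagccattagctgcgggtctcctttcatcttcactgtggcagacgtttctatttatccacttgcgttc
Wnt3a: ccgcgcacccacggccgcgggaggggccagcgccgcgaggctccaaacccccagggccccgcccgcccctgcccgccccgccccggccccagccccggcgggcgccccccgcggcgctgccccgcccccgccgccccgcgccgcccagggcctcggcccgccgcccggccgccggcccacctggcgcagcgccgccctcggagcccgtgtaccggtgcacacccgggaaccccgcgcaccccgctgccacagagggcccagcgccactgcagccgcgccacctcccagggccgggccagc

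RefSeq windows were found for 8 of the 10 genes, not for Mixl1 and Fgf8. Of these 8, 1 held the TCF/LEF core (3.73% of 32851 windows), 1 held the T-box element (3.98%) and 0 held the FOXH1 site (2.49%). Both matches were in Mesp1 and did not overlap, the TCF/LEF core starting 31 bases before and the T-box element 5 bases after the RefSeq start. That start (79793590) lies 198 bases inside the counted Mesp1 transcript, whose own start is 79793788, so both matches lie within that transcript. The RefSeq and counted starts were the same for T, Evx1 and Axin2 and 1 to 155 bases apart for Wnt3a, Wnt3, Gsc and Eomes. A match is a description of letters only. The 8 windows differed widely in CpG content, from 4 CpGs in Mesp1, 12 in Evx1 and 17 in T to 45 in Wnt3a, against a median of 7 over the 32851 windows.

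Eomes, a T-box factor of both the streak and the trophoblast (ENSMUSG00000032446, chromosome 9 from 118478344 to 118486132), was the most abundant of the 10 genes per length. Its median over the 7 controls of both crosses was 17.5 CPM per kb of transcript, ahead of Axin2 (5.05), Fgf8 (3.46), Mixl1 (1.49), Wnt3, T (0.762), Evx1 (0.207), Gsc (0.105), and Mesp1 and Wnt3a (both 0). Each neighbour in this order overlapped the next in its range over the 7 controls. Eomes was therefore already on in epiblasts with next to no T, including Ehmt2 control 1, with 18.5 CPM of Eomes and 0 counts of T.

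The other transcription factors were graded between these extremes. Evx1, a homeobox gene of the posterior streak (ENSMUSG00000005503, chromosome 6 from 52313498 to 52318378), had 0.0250, 2.49, 0.561 and 0.562 CPM in Ehmt2 controls 1 to 4. Gsc, a homeobox gene of the anterior streak (ENSMUSG00000021095, chromosome 12 from 104471209 to 104473330), had 0, 1.52, 0.134 and 1.33 CPM. Evx1 followed T in setting control 2 apart, at 4.42-fold the next control, whereas Gsc was nearly as high in control 4.

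The ligands Wnt3 and Fgf8 and the Wnt target Axin2 varied less. Wnt3, the ligand needed for streak formation (ENSMUSG00000000125, chromosome 11 from 103774150 to 103817957), had 0.601, 4.35, 1.58 and 4.80 CPM in Ehmt2 controls 1 to 4. Fgf8, which drives the exit of cells from the streak (ENSMUSG00000025219, chromosome 19 from 45736798 to 45742874), had 2.40, 6.61, 3.10 and 9.64 CPM. Axin2, which feeds back on the beta-catenin destruction complex (ENSMUSG00000000142, chromosome 11 from 108920349 to 108950783), had 12.2, 26.2, 14.5 and 9.71 CPM. Fgf8 and Wnt3 were highest in control 4 and Axin2 in control 2, at 1.81-fold the next control.

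**Figure D2:**
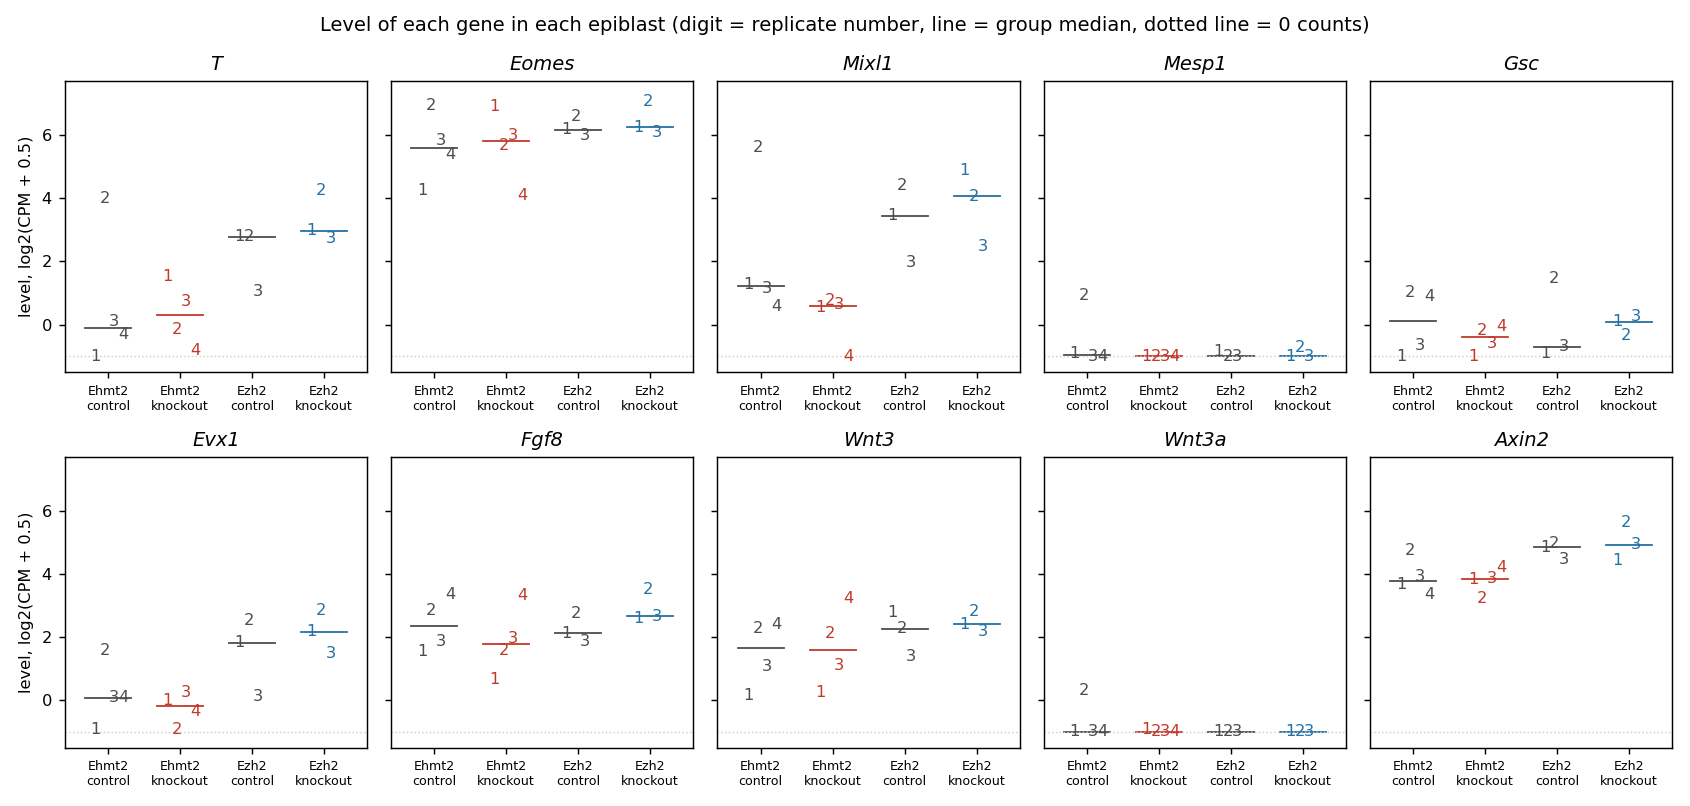
Level of each gene by group, as log2(CPM + 0.5); each digit is 1 epiblast, named by its replicate number, and the line is the group median. Ehmt2 control 2 is separated from the other 3 controls in T, Mixl1, Mesp1, Evx1 and Wnt3a, while in Fgf8 and Wnt3 control 4 is the highest control.

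Between the crosses, the Ezh2 epiblasts sat higher in the mean of the 10 genes than all Ehmt2 epiblasts but control 2. Ordered by the mean of the 10 genes, the 6 Ezh2 epiblasts took ranks 2 to 7 of 14 and the 7 Ehmt2 epiblasts other than control 2 took ranks 8 to 14. T, for example, had 6.32, 6.45 and 1.56 CPM in Ezh2 controls 1 to 3, against 0 to 0.561 CPM in 3 of the 4 Ehmt2 controls. Fgf8 went the other way in controls only, with a mean of 4.40 CPM in Ezh2 controls against 5.44 CPM in Ehmt2 controls, where control 4 had 9.64 CPM. In knockouts its mean was 7.40 CPM in the Ezh2 cross against 4.11 CPM in the Ehmt2 cross. Wnt3a had 0 counts in the Ezh2 cross. Ranks 3 and 4 were Ezh2 control 2 and Ezh2 knockout 1, which had the highest visceral endoderm markers (given below), and the part of that tissue was not tested. No test was made, because the crosses were separate collections and the cross, the parents and the stage of the embryos cannot be told apart.

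Loss of Ehmt2 gave no called change in these genes. The test was edgeR's quasi-likelihood test with Benjamini-Hochberg adjustment over 49872 transcripts, and a call required an adjusted p under 0.05 and a log2 fold change beyond 1.4. Of the 10 genes 8 were tested, and 0 were called higher (0.441% of all tested transcripts were) and 0 lower (0.0581%). At an unadjusted p under 0.05, 1 of the 8, Mixl1, differed, where 11.8% of all tested transcripts did, and DESeq2 called 1, again Mixl1, where it called 1.48% of all tested transcripts in either direction. For 0 of the 8 genes did each knockout lie above each control (2.55% of all tested transcripts) or below each control (2.54%). The estimates were lower in knockouts for 7 of 8 genes, with a median log2 fold change of -0.94 beside -0.01 over all tested transcripts.

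Mixl1 had the lowest estimate. It had 0.943, 1.18, 1.07 and 0 CPM in Ehmt2 knockouts 1 to 4 (0.799 ± 0.542, SD, n = 4) against 13.3 ± 23.4 CPM in controls (SD, n = 4). Each knockout was below each control of its own comparison set, which held for 5.1% of all tested transcripts, but knockouts 2 and 3 were above control 4, so the 2 groups as a whole overlapped. The log2 fold change was -4.21 (standard error 1.02, 95% confidence interval -6.43 to -1.996, adjusted p = 0.103, edgeR). Without control 2 it was -1.81 (95% interval -3.93 to 0.32, adjusted p = 0.579), with DESeq2 -4.68 (adjusted p = 0.0154) and without the filter on low counts -4.22 (adjusted p = 0.0249, edgeR), so that control 2, the tool and the filter each moved the value or its side of the threshold.

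T turned direction with control 2. It had 2.34, 0.404, 1.15 and 0.0668 CPM in Ehmt2 knockouts 1 to 4, 0.991 ± 1.01 CPM against 4.06 ± 7.54 CPM in controls (SD, n = 4 each). All 4 knockouts lay within the range of the 4 controls, and knockout 4 lay below control 4, the control of its own comparison set. The log2 fold change was -2.05 (standard error 1.21, 95% interval -4.68 to 0.58, adjusted p = 0.548) and became 1.13 (-2.04 to 4.29, adjusted p = 0.843) without control 2 (edgeR).

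The homeobox genes Evx1 and Gsc behaved likewise. Evx1 had 0.486, 0.0289, 0.678 and 0.284 CPM in Ehmt2 knockouts 1 to 4, and its estimated log2 change of -1.27 (SE 1.02, adjusted p = 0.683) became 0.01 without control 2 (edgeR). Gsc had 0, 0.376, 0.156 and 0.467 CPM, and its estimated log2 change of -1.60 (SE 1.19, adjusted p = 0.650) became 0.36 (edgeR). The knockouts of Gsc lay within the range of the 3 remaining controls, and so did those of Evx1 except knockout 3, which was above them.

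Eomes, Axin2, Fgf8 and Wnt3 had narrower intervals around smaller estimates. Eomes had 119, 49.6, 62.8 and 16.6 CPM in Ehmt2 knockouts 1 to 4, a mean of 62.0 ± 42.6 against 59.2 ± 44.1 CPM in controls (SD, n = 4 each). Its log2 fold change was -0.13 (95% interval -1.18 to 0.91, adjusted p = 0.947, edgeR), and it was 0.06 without the term for the comparison set and 0.23 in replicates 1 to 3 alone. Knockout 1, with the most Eomes, also had the highest summed extraembryonic ectoderm markers (219 CPM).

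Axin2 had 13.7, 8.81, 13.9 and 18.0 CPM in Ehmt2 knockouts 1 to 4, with a log2 fold change of -0.19 (95% interval -0.87 to 0.49, adjusted p = 0.866, edgeR). Fgf8 had 1.09, 2.48, 3.36 and 9.50 CPM, with a log2 fold change of -0.60 (95% interval -1.48 to 0.28, adjusted p = 0.607, edgeR). Wnt3 had 0.686, 3.78, 1.64 and 8.90 CPM, with a log2 fold change of 0.16 (95% interval -1.15 to 1.46, adjusted p = 0.951, edgeR). Knockout 4 was the highest knockout for each of these 3 genes, and control 4 the highest control for Fgf8 and Wnt3.

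**Figure D3:**
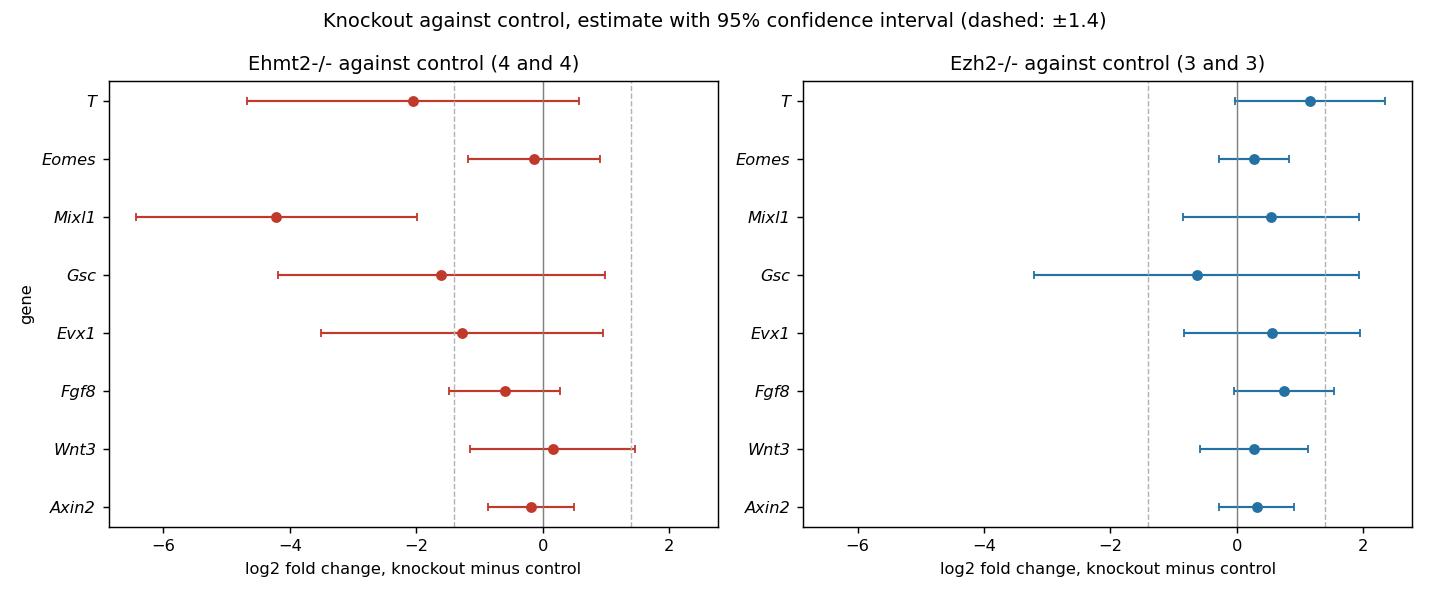
Log2 fold change, knockout minus control, of the 8 tested genes in the Ehmt2 cross (left) and the Ezh2 cross (right); points are edgeR estimates, bars are 95% confidence intervals and dashed lines mark the fold change required for a call. In the Ehmt2 cross the interval of Mixl1, -6.43 to -1.996, is the 1 interval that does not include 0, and in the Ezh2 cross each interval includes 0.

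Without control 2, 6 of the 8 estimates were higher in Ehmt2 knockouts and the median log2 fold change was 0.26. With any other Ehmt2 epiblast left out, the median stayed between -1.21 and -0.74. The direction of the 8 genes as a list therefore rested on 1 control epiblast.

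**Figure D4:**
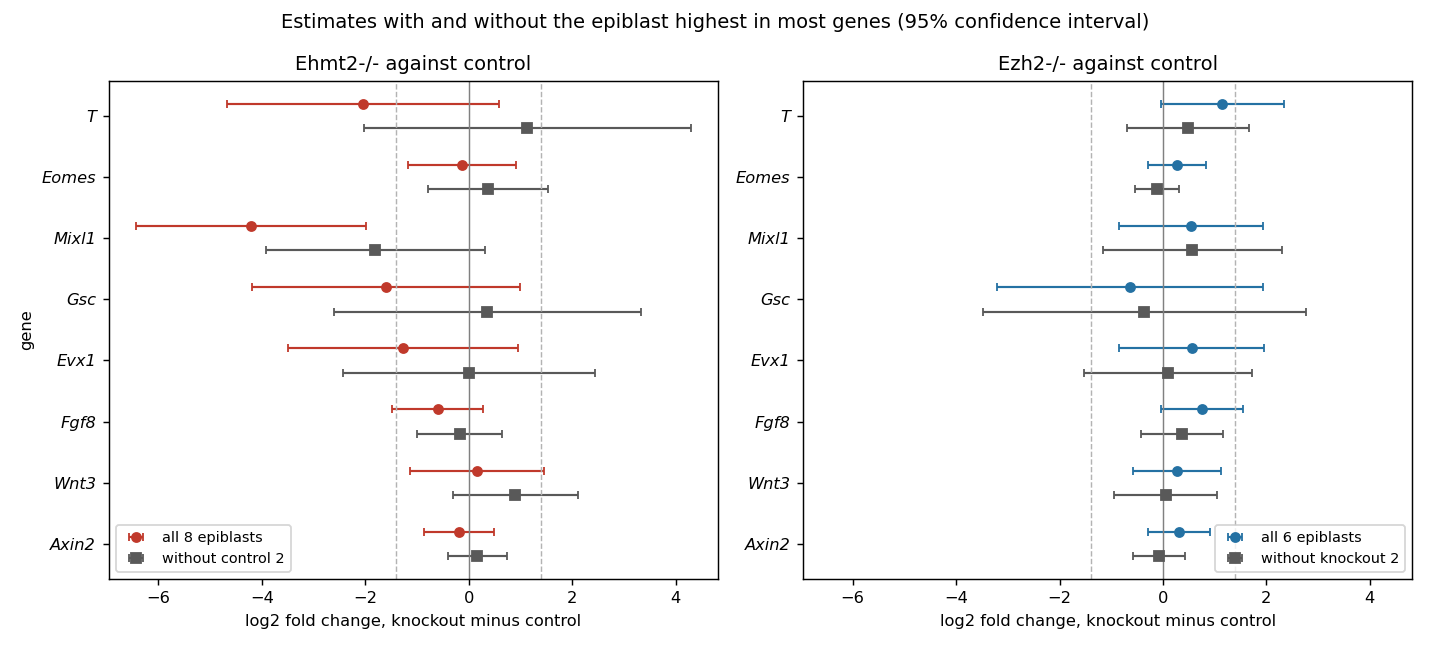
Log2 fold change, knockout minus control, with 95% confidence intervals, over all epiblasts (circles) and without the epiblast that was highest in most genes (squares): control 2 in the Ehmt2 cross (left) and knockout 2 in the Ezh2 cross (right). Without Ehmt2 control 2, T moves from -2.05 to 1.13 and Mixl1 from -4.21 to -1.81; without Ezh2 knockout 2, T moves from 1.15 to 0.49.

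Loss of Ezh2 gave no called change in these genes either, in a fit that called no transcript higher. The lack of a call on that side is therefore no result about these genes. The study, by its own rule, reported changed transcripts in Ezh2 knockouts, with gastrulation-related genes such as Lefty2 among them. Over 50855 tested transcripts, 0% were called higher and 0.0118% lower by edgeR, and of the 8 genes tested 0 were called in either direction by edgeR and 0 by DESeq2, which called 0.35% of all tested transcripts in either direction. At an unadjusted p under 0.05 the count among the 8 was 0 by edgeR, where 7.02% of all tested transcripts passed. For 0 of the 8 genes did each knockout lie above each control (6.43% of all tested transcripts) or below each control (6.69%). The estimates were higher in Ezh2 knockouts for 7 of the 8 genes, with a median log2 fold change of 0.43 beside 0.01 over all tested transcripts. That median was 0.076 without knockout 2, 0.12 without control 3 and 1.18 without control 2, and between 0.47 and 0.65 without any of the other 3.

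A single epiblast again led the group. Ezh2 knockout 2 was the highest of the 6 Ezh2 epiblasts in 7 of the 10 genes, while 17.4% of all tested transcripts were highest there, and its mean log2(CPM + 0.5) of 2.81 was second of the 14. The 7 genes include the untested Mesp1, with 4 counts against 2 in Ezh2 control 1. They also include Wnt3, at 6.51 CPM against 6.30 CPM in Ezh2 control 1. T had 7.36, 18.4 and 6.03 CPM in Ezh2 knockouts 1 to 3, 10.6 ± 6.81 against 4.78 ± 2.79 CPM in controls (SD, n = 3 each). Of the 3 knockouts, 2 were above every control and knockout 3 was not. The log2 fold change of T was 1.15 (standard error 0.54, 95% interval -0.04 to 2.34, adjusted p = 0.725), and 0.49 without knockout 2 (edgeR).

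Fgf8 had 5.49, 10.9 and 5.79 CPM in Ezh2 knockouts 1 to 3 and 3.86, 6.25 and 3.09 CPM in controls, an estimated log2 change of 0.75 (SE 0.36, adjusted p = 0.729, edgeR). Evx1 had 4.00, 6.67 and 2.31 CPM in knockouts and 3.02, 5.22 and 0.595 CPM in controls, an estimated log2 change of 0.56 (SE 0.63, adjusted p = 0.908, edgeR). Control 3 was the lowest of the 6 epiblasts in both genes, and also in T, Eomes, Mixl1 and Wnt3. It had the most Ezh2 of the Ezh2 controls (108 CPM), and a link between these levels was not tested.

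Eomes had 74.8, 134 and 66.2 CPM in Ezh2 knockouts 1 to 3 and 70.9, 95.1 and 62.2 CPM in controls, a log2 fold change of 0.27 (adjusted p = 0.884, edgeR) that was -0.11 without knockout 2. Axin2 had 21.0, 48.8 and 29.7 CPM in knockouts and 28.0, 30.7 and 21.5 CPM in controls, a log2 fold change of 0.31 (adjusted p = 0.875, edgeR) that was -0.08 without knockout 2. Wnt3 had 4.81, 6.51 and 3.99 CPM in knockouts and 6.30, 4.31 and 2.12 CPM in controls, a log2 fold change of 0.27 (adjusted p = 0.938, edgeR). The groups overlapped in all 3 genes.

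Mixl1 and Gsc peaked in other Ezh2 epiblasts. Mixl1 had 29.1, 16.1 and 5.09 CPM in Ezh2 knockouts 1 to 3 and 10.4, 20.8 and 3.43 CPM in controls, a log2 fold change of 0.54 (adjusted p = 0.911, edgeR) that was -0.12 without knockout 1, 0.10 without control 3 and 1.28 without control 2. Gsc had 0.559, 0.295 and 0.682 CPM in knockouts and 0.0280, 2.25 and 0.113 CPM in controls, a log2 fold change of -0.64 (adjusted p = 0.950, edgeR) that was 2.80 without control 2.

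Markers of the neighbouring tissues were read beside these values. The summed level of 10 visceral endoderm markers was 516 CPM in Ezh2 control 2 and 1099 CPM in Ezh2 knockout 1, and between 8.48 and 60.8 CPM in the other 12 epiblasts. The defining markers Afp, Ttr and Amn were at 39.4, 29.5 and 5.08 CPM in Ezh2 control 2 and at 117, 74.6 and 8.35 CPM in Ezh2 knockout 1. In Ehmt2 control 2 they were at 0.193, 1.44 and 0.150 CPM, and its sum was 47.5 CPM. Visceral endoderm also expresses Gsc, Eomes and Wnt3, and the part of this tissue in the Ezh2 values was not tested.

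Extraembryonic ectoderm markers moved with the Ehmt2 genotype. Their summed level over 8 genes was 13.6 to 17.4 CPM in Ehmt2 controls and 219, 59.6, 65.8 and 24.4 CPM in Ehmt2 knockouts 1 to 4, and 4 of the 8 genes (Elf5, Esrrb, Tfap2c and Bmp4) were called higher, where 0.441% of all tested transcripts were. The summed epiblast markers were lower in these knockouts, as given above, with 6 of 8 estimates lower, 4 of them (Pou5f1, Fgf5, Dnmt3b and Otx2) at an unadjusted p under 0.05 (11.8% of all tested transcripts) and 0 called by edgeR or DESeq2. The part of these shifts in the lower estimates of the streak genes was not tested. The defining markers Elf5 and Cdx2 were at 60.9 and 6.52 CPM in knockout 1 and at 0 counts in knockout 4. Eomes, which this tissue shares, was highest of the knockouts in knockout 1 and lowest in knockout 4. More cells of this tissue and more RNA per cell cannot be told apart in these bulk values, and their part in the Eomes value was not tested. In the Ezh2 cross the sums were 9.43 to 14.1 CPM in controls and 13.3 to 32.6 CPM in knockouts, with 0 of 6 tested genes called by edgeR, 3 at an unadjusted p under 0.05 (7.02% of all tested transcripts) and 1 (Bmp4) called by DESeq2 (0.35%). The 4 maternal decidua and stroma markers summed to 1.11 to 41.2 CPM over the 14 epiblasts, with 11.5 CPM in Ehmt2 control 2, and in either cross 0 of 4 were called by edgeR, 0 by DESeq2 and 0 at an unadjusted p under 0.05.

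**Figure D5:**
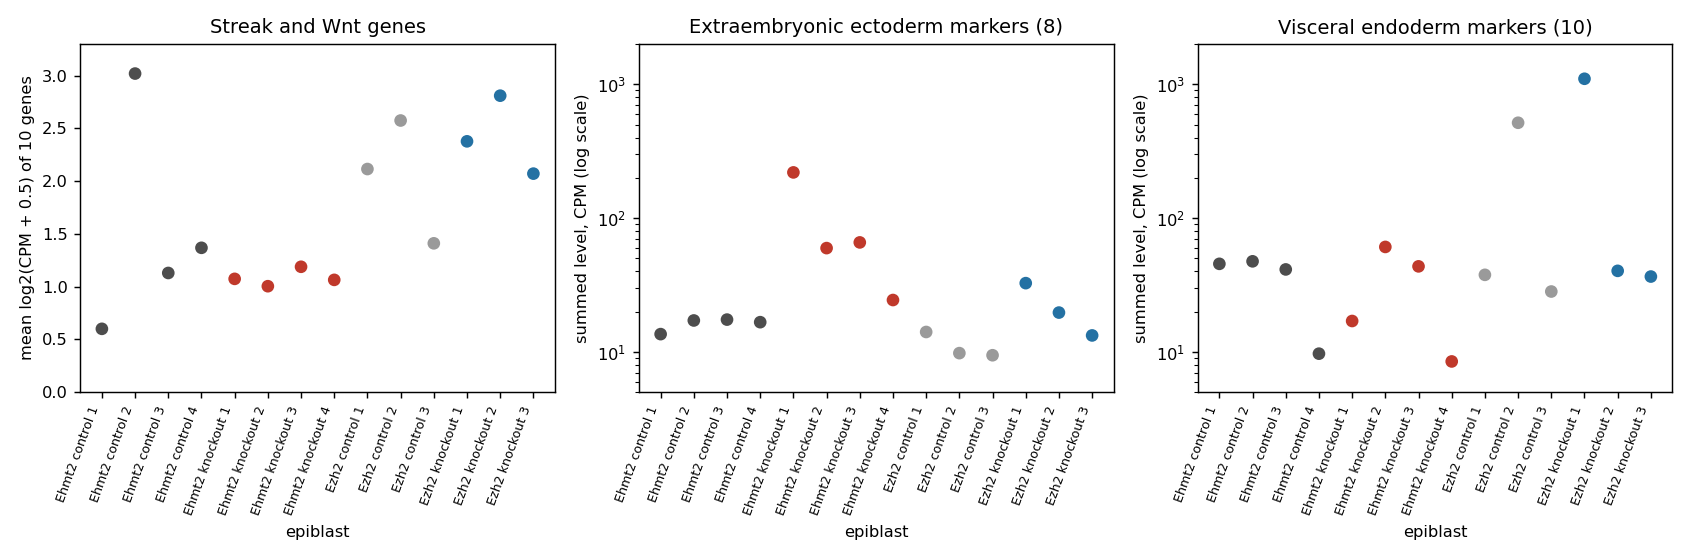
For each epiblast, the mean log2(CPM + 0.5) of the 10 genes (left), the summed CPM of 8 extraembryonic ectoderm markers (middle, log axis) and of 10 visceral endoderm markers (right, log axis); dark grey Ehmt2 control, red Ehmt2 knockout, light grey Ezh2 control, blue Ezh2 knockout. Ehmt2 control 2 has the highest mean, 3.02, with marker sums (17.2 and 47.5 CPM) close to those of controls 1 and 3.

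Some genes of the rest of the Wnt pathway were hardly counted or absent, such as Wnt1, at 0 CPM in the 7 controls, and Wnt10b, which was not listed. The pathway held no gene called by edgeR in either cross. Of its 55 genes tested in the Ehmt2 cross 14 had an unadjusted p under 0.05 (11.8% of all tested transcripts did) and 1, Fzd1, was called by DESeq2 (1.48%). Of 57 in the Ezh2 cross 9 had such a p (7.02%) and 0 were called by DESeq2 (0.35%). Of 17 further Wnt ligands 8 were tested in the Ehmt2 cross and 7 in the Ezh2 cross. In the Ehmt2 cross 3 of the 8 had an unadjusted p under 0.05 (edgeR; 11.8% of all tested transcripts did). They were Wnt7b (log2 fold change 3.63), Wnt6 (2.40) and Wnt5b (-2.25). In the Ezh2 cross 0 of the 7 did. The 3 with the highest control levels were Wnt2b, Wnt5a and Wnt8a, with 3.77, 2.84 and 1.86 CPM on average over the 7 controls. Wnt8a, a ligand of the posterior embryo, was highest in Ehmt2 control 2 and in Ezh2 knockout 2 of their crosses. Of 23 genes for Wnt secretion, receptors and their regulators 19 were tested in each cross. Fzd7, a Wnt receptor, had 179 ± 36.4 CPM in Ehmt2 controls against 127 ± 26.0 CPM in knockouts (SD, n = 4 each; log2 fold change -0.50, adjusted p = 0.273), and the co-receptor Lrp6 had 93.9 ± 13.7 and 91.1 ± 8.49 CPM (-0.04, adjusted p = 0.931; edgeR). Fzd5 had a log2 fold change of -0.48 in Ehmt2 knockouts (adjusted p = 0.206, edgeR). In Ezh2 knockouts Fzd7 had -0.41 (adjusted p = 0.557) and Fzd5 had -1.02 (adjusted p = 0.718; both edgeR).

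Downstream of the receptors, too, no gene was called by edgeR in either cross. At an unadjusted p under 0.05 (edgeR), 2 of 12 signal transducers differed in each cross. They were Btrc and Gsk3a in the Ehmt2 cross (11.8% of all tested transcripts) and Btrc and Csnk1a1 in the Ezh2 cross (7.02%). Each of the 12 signal transducers was tested in both crosses, and Ctnnb1, the gene of beta-catenin, had 390 ± 54.9 CPM in Ehmt2 controls against 408 ± 122 CPM in knockouts (SD, n = 4 each; log2 fold change 0.03, adjusted p = 0.934, edgeR). The kinases Csnk1a1 and Gsk3b, which mark beta-catenin for destruction, had log2 fold changes of 0.03 and 0.01 in Ehmt2 knockouts (adjusted p = 0.942 and 0.989, edgeR). In Ezh2 knockouts they had -0.27 and -0.10 (adjusted p = 0.666 and 0.903, edgeR). Of 12 TCF/LEF factors and further Wnt targets 9 were tested in the Ehmt2 cross and 10 in the Ezh2 cross. Ccnd1, Tcf7l1 and Myc had log2 fold changes of -0.27, -0.19 and -0.35 in Ehmt2 knockouts and 0.11, -0.41 and 0.07 in Ezh2 knockouts (smallest adjusted p in the Ehmt2 cross 0.409, edgeR). Of the 12 secreted Wnt inhibitors 7 and 9 were tested, and Sfrp1 and Sfrp2, which bind Wnt ligands, had log2 fold changes of 0.13 and 0.14 in Ehmt2 knockouts (adjusted p = 0.871 and 0.929, edgeR). Cer1, a gene of the anterior visceral endoderm, had 0.280, 39.0 and 0 CPM in Ezh2 controls 1 to 3 and 2.05, 1.53 and 0.315 CPM in knockouts, a log2 fold change of -3.34 (adjusted p = 0.741) that became 3.18 without control 2 (adjusted p = 0.685, edgeR).

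Among 21 other streak and early mesoderm genes 19 were listed and 14 were tested in each cross. In the Ehmt2 cross 1 was called higher, Bmp4, with 1.71 ± 0.564 CPM in controls against 18.5 ± 18.5 CPM in knockouts (SD, n = 4 each; log2 fold change 3.20, standard error 0.51, adjusted p = 0.0167, edgeR), and 0 were called in the Ezh2 cross. At an unadjusted p under 0.05 the counts were 4 (11.8% of all tested transcripts) and 3 (7.02%), and DESeq2 called 2 in each cross (1.48% and 0.35%), Fgf17 and Bmp4 in the Ehmt2 cross and Bmp4 and Lefty2 in the Ezh2 cross. Bmp4 is also on the extraembryonic ectoderm list. The most abundant genes of the list, the Nodal co-receptor gene Tdgf1, Nodal and Fgf4, had log2 fold changes of -0.21, 0.21 and 0.06 in Ehmt2 knockouts (smallest adjusted p = 0.727, edgeR). Ehmt2 control 2 was the highest Ehmt2 epiblast in 9 of the 19 listed genes: Foxa2, Lhx1, Snai1, Tdgf1, Fgf3, Fgf17, Kdr, Chrd and Gata6. Of all tested transcripts 6.89% were highest there. In the Wnt lists it was highest in 2 of 16 listed ligands and 5 of 23 genes for secretion, receptors and their regulators. It was also highest in 1 of 12 inhibitors, 1 of 12 transducers and 4 of 12 TCF/LEF factors and targets.

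Over the 14 epiblasts, and among 11710 genes with a mean of at least 1 CPM, the genes most like T by Pearson correlation of log2 levels centred within each cross and comparison set were Evx1 (r = 0.89), Flt4 (0.87), Tmem134 (0.84), Acadl (0.83) and Frzb (0.83). Eomes ranked 10 (0.80), Mixl1 19 (0.77), Axin2 38 (0.72), Fgf8 121 (0.63) and Wnt3 215 (0.56). For Axin2 they were Ctu1 (0.86), Gm42421 (0.83), Epha2 (0.82), Gtf2ird2 (0.82) and Aplnr (0.81). These correlations are descriptions, since genes of 1 library share its depth and its stage, and Ehmt2 control 2 and Ezh2 knockout 2 weigh on each of them. Aplnr, a receptor gene of early mesoderm, had 6.71 CPM in Ehmt2 control 2 beside a median of 0.775 CPM over the 14 epiblasts.

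The choice of transcript could be compared only for genes with more than 1 tested transcript. Mixl1, Gsc and Wnt3 had 1 in each cross, and Evx1 had 1 in the Ehmt2 cross. The tested transcripts of the other genes had log2 fold changes of the same sign, between -0.60 and -0.54 for the 6 of Fgf8 and between -2.05 and -1.73 for the 2 of T in the Ehmt2 cross, except Axin2, whose 7 transcripts ran from -0.30 to 0.33 there. Transcripts of 1 gene share reads, so a shared sign is partly built in. Exons of genes on the other strand overlap 118 of 3560 exon bases of Eomes (Gm33460), 73 of 2877 of Evx1 (Evx1os) and 207 of 4260 of Axin2 (Gm11670), and reads there cannot be assigned to 1 gene unless the counting used strand, which is not given in the sources used here.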

How the data were processed

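Single E6.25 epiblasts of the Ehmt2 cross (4 control, 4 knockout) and of the Ezh2 cross (3 control, 3 knockout) were analysed, each epiblast being 1 embryo and 1 replicate. The groups are those of the labels. The authors trimmed reads to 40 nt, aligned them with TopHat2 to GRCm38 and deposited raw read counts per Ensembl release 74 transcript from HTSeq. The deposited counts list transcripts with at least 1 count, so an absent transcript was set to 0. The files of the 2 replicate 4 epiblasts also hold a row of unaligned reads (12.6% and 13.3% of their totals), which was left out of library sizes and tests. Transcripts were named with GENCODE vM21 (GRCm38), and 70021 of 72515 matched. The 10 genes and all gene lists were chosen with earlier results of these data known.

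Counts were tested per cross with edgeR 4.0.16 in R 4.3.3 (TMM, filterByExpr by genotype, quasi-likelihood F-test, Benjamini-Hochberg adjustment over all tested transcripts), with a term for the comparison set in the Ehmt2 cross. Transcripts were called at an adjusted p under 0.05 where the log2 fold change also passed 1.4 in size. The study's own rule combined comparisons of each knockout with the controls by Fisher's method on DESeq fits, and was not used. Standard errors are the size of the log2 fold change divided by the root of F. Levels are CPM on TMM sizes over the 14 epiblasts, with a pseudocount of 0.5 on the log2 scale. The 40-base words of the 10 transcripts were searched in all GENCODE transcripts to find shared sequence. Alternatives were DESeq2 1.42.0, its size factors, no filter, 1 transcript per gene, the replicate number as a block, no term for the comparison set, replicates 1 to 3 only, and each epiblast left out in turn. The fitting code was checked on simulated data. Named genes were the 10 members, both targeted genes, from each list every called gene and the 3 tested genes with the highest mean level in the 7 controls, the defining and called markers, and the 5 genes most like T and Axin2. A few further genes were named after their values were seen. They include those of the streak list that were highest in Ehmt2 control 2 and those named for an unadjusted p under 0.05. The RNA was amplified from 750 pg with no molecular identifiers, so the floors for counts of 0 cover counting error only, while the intervals from edgeR include the spread between epiblasts.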

Additional observations from a re-analysis of the deposited data

Results flagged for a closer look

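In groups of 4 epiblasts, the highest or lowest value was set against the others by Dixon's ratio of gap to range. This covered 29 groups of values. The nominal rate of marks by chance, about 1 in 20, assumes normally distributed values and does not hold for CPM with counts of 0. The marks are therefore descriptions, and those of different genes in the same epiblast are not independent. The marked values were 6. Of these, 4 lay in Ehmt2 control 2: T at 15.4 CPM, Mixl1 at 48.4 CPM, Mesp1 at 1.37 CPM and Wnt3a at 0.751 CPM. Wnt3a at 0.0286 CPM in Ehmt2 knockout 1 is a single count among 3 knockouts at 0. The summed visceral endoderm markers of Ehmt2 control 4 were low, at 9.69 CPM, where the other controls were at 41.3 to 47.5 CPM, and Ehmt2 knockout 4, of the same comparison set, had 8.48 CPM. Groups of 3 epiblasts were not examined in this way.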

How the results depend on the processing

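Across the alternatives other than leaving out an epiblast, the log2 fold changes of the 8 tested genes kept their direction and their side of the threshold in 50 fits of the Ehmt2 cross (5 did not) and 39 of the Ezh2 cross (1 did not). Direction changed for Eomes in the Ehmt2 cross without the term for the comparison set (0.064) and in replicates 1 to 3 alone (0.23), and for Wnt3 in replicates 1 to 3 alone (-0.11). Mixl1 passed the threshold with DESeq2 (-4.68, adjusted p = 0.0154) and without the filter (-4.22, adjusted p = 0.0249, edgeR), so that 1 of the 10 genes was called there. Gsc could not be tested in replicates 1 to 3 alone, because it failed the filter.

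In the Ehmt2 cross each same-numbered control and knockout deviated together, though weakly (r = 0.0536 to 0.373, mean 0.175, against a mean of -0.046 for different numbers). The highest r was that of the replicate 4 pair. Among replicates 1 to 3, r was 0.0536 to 0.164 for same numbers and 0.0631 to 0.155 for different numbers. In the Ezh2 cross r was -0.114 to 0.156 for same numbers (mean 0.013, against -0.007). Which control and knockout shared a litter is not given, so the numbers were not taken as pairs and the block is an alternative. With the replicate block 99 transcripts were higher and 6 lower in Ehmt2 knockouts, 3 higher in Ezh2 knockouts, and Gsc was 1.18 in the Ezh2 cross, while no other gene of the 10 changed direction or was called. In the Ehmt2 cross the block moved T to -0.28, Mixl1 to -2.79, Evx1 to -0.52, Gsc to -1.18, Eomes to -0.048, Axin2 to -0.12 and Wnt3 to 0.24, and the median of the 8 genes to -0.40. In the Ezh2 cross it moved Evx1 to 0.84 and the median to 0.65. T was 1.22 there (95% interval 0.44 to 2.00) and Fgf8 0.74 (0.15 to 1.33). Both intervals thus lay wholly on the side of higher levels in knockouts, with adjusted p = 0.554 and 0.637 (edgeR). Without the filter the Ehmt2 median was -1.44, over 10 genes.

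The counts over all transcripts moved more. In the Ehmt2 cross, 220 higher and 29 lower became 544 and 192 with DESeq2, 395 and 65 without the filter, 112 and 12 with 1 transcript per gene, 51 and 1 without the set term, and 391 and 45 in replicates 1 to 3 alone. In the Ezh2 cross, 0 higher and 6 lower became 153 and 25 with DESeq2, 20 higher without the filter and 0 lower with 1 transcript per gene. The cause was not tested.

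With each epiblast left out in turn, higher and lower counts ran from 94 to 399 and 7 to 48 in the Ehmt2 cross and from 0 to 21 and 0 to 6 in the Ezh2 cross, and 0 of the 10 genes were called. In the Ehmt2 cross the log2 fold changes ran from -2.65 to 1.13 for T, -0.53 to 0.37 for Eomes, -4.74 to -1.81 for Mixl1, -2.32 to 0.36 for Gsc, -1.68 to 0.0096 for Evx1, -0.82 to -0.18 for Fgf8, -0.35 to 0.90 for Wnt3 and -0.54 to 0.16 for Axin2. In the Ezh2 cross they ran from 0.49 to 1.43 for T, -0.11 to 0.46 for Eomes, -0.12 to 1.28 for Mixl1, -1.20 to 2.80 for Gsc, 0.07 to 1.26 for Evx1, 0.36 to 1.09 for Fgf8, -0.057 to 0.66 for Wnt3 and -0.075 to 0.55 for Axin2. The intervals of T, Gsc and Evx1 are several log2 units wide, so a change of moderate size in these genes was not detectable with these numbers of epiblasts.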

Other observations

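Shared sequence touched few of the 10 transcripts. No 40-base word of T, Mixl1, Gsc, Fgf8, Wnt3 or Wnt3a was found in a transcript of another gene, 3 of 1236 words of Mesp1 were found in Mesp2, and 36 of 2838 of Evx1 in Evx1os, 91 of 3512 of Eomes in many genes and 129 of 4221 of Axin2 in Gm11670.

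Lef1, a TCF/LEF factor, is named here after its values were seen. It had 39.9 ± 6.62 CPM in Ehmt2 controls against 22.0 ± 6.08 CPM in knockouts (SD, n = 4 each), an estimated log2 change of -0.87 (SE 0.20, adjusted p = 0.0915, edgeR), which misses the threshold. In the Ezh2 cross its log2 fold change was 0.00 (SE 0.16). Fgf17, an FGF ligand of the streak list also named after its values were seen, had 1.05 ± 0.608 CPM in Ehmt2 controls against 0.132 ± 0.139 CPM in knockouts (SD, n = 4 each), an estimated log2 change of -3.14 (SE 0.90, adjusted p = 0.174, edgeR). Both were highest of the 8 Ehmt2 epiblasts in control 2.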
